A study of Mus musculus with 19 samples.

Results

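Transforming growth factor beta (TGF-beta) signalling, matrix metalloproteinases and their inhibitors, collagen cross-linking enzymes, platelet-derived growth factor (PDGF) signalling and a few mesenchymal and secreted proteins make up the 30 profibrotic signalling and matrix turnover genes described here. The genes were chosen by name from a table of kidney RNA counts that lists 40413 genes. All 30 had counts, and 27 of them are among the 16421 genes that passed the filter on low counts and were tested. Mmp3, Mmp7 and Il11 did not pass that filter and were not tested. The rule that picks them uses gene names and no measured value, but the genes were chosen with earlier results of these data known.

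Kidney RNA came from adult mice of 2 strains, BPN/3J, which has normal blood pressure, and BPH/2J, which is hypertensive. Mice of each strain received vehicle or Cmpd17b, a small-molecule agonist of formylpeptide receptors, by intraperitoneal injection at 50 mg/kg/day, and all groups were treated for 28 days. The groups compared here are BPN/3J with vehicle (4 mice), BPN/3J with Cmpd17b (5 mice), BPH/2J with vehicle (5 mice) and BPH/2J with Cmpd17b (4 mice). Each library carries the number of its own mouse, and all carry the same batch label. The labels give the strain and no engineered allele, so a difference between BPH/2J and BPN/3J joins genetic background with blood pressure. In whole kidney, more cells of a type and more RNA per cell cannot be told apart.

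Fibrosis is the build-up of extracellular matrix, and in the kidney it accompanies chronic injury and hypertension. TGF-beta ligands bind the receptors Tgfbr1 and Tgfbr2, which act through Smad3 and are restrained by Smad7, and Ccn2 and Ccn1 are matrix-associated proteins induced by TGF-beta and by mechanical signals. Lysyl oxidases cross-link collagen and elastin, metalloproteinases cut matrix proteins, and tissue inhibitors of metalloproteinases (Timp1, Timp2, Timp3) hold them back.

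Total counts per library ran from 21400111 to 40998650. A further library, labelled BPH/2J Cmpd17b replicate 1, was left out of the fit because its 16 listed heart muscle genes summed to 74069 CPM (read counts scaled to the library's total, here without further scaling). In the 4 other treated BPH/2J libraries the same genes summed to 140 to 167 CPM, which is 0.189% to 0.225% of that level, and in the 14 libraries of the other groups they summed to 6.20 to 14.9 CPM. If transcripts of the 30 genes came along in the same share, they would make up at most 3.16% of the treated BPH/2J mean, for Fap, and under that for the others. That scaling assumes the profile of the left-out library, and whether its transcripts came along was not tested. Mitochondrial transcripts took 12.8% to 16.3% of the counts in BPN/3J libraries and 15.998% to 26.6% in BPH/2J libraries. Levels below are CPM after TMM scaling (trimmed mean of M-values), which corrects library sizes for a few very abundant transcripts.

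Under vehicle, 9 of the 27 tested genes were higher in BPH/2J than in BPN/3J kidney and 0 were lower, at an adjusted p under 0.05 in edgeR's quasi-likelihood test. That is 33.3% of them, where 5.82% of all tested genes were called higher and 4.94% lower. Because the genes were chosen with earlier results of these data known, these shares are not a blind comparison. The 9 genes were the lysyl oxidases Loxl2 and Lox, the ligands Tgfb2 and Tgfb3, the intermediate filament gene Vim, Ccn2, the metalloproteinases Mmp2 and Mmp14, and the inhibitor Timp2. The median log2 fold change of BPH/2J over BPN/3J was 0.65 over the 27 genes and 0.04 over all tested genes, and 21 of the 27 were positive. For 6 genes (Loxl2, Lox, Vim, Mmp2, Timp2 and Mmp14) every BPH/2J vehicle mouse lay above every BPN/3J vehicle mouse, against 6.9% of all tested genes. At an unadjusted p under 0.05 in edgeR the count was 12 of the 27, which adds Timp1, Ccn1 and Pdgfra. Of all 16421 tested genes, 3932 had such a p.

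The count of 9 changed with a fibroblast covariate and with single libraries. Summed over 16 fibroblast markers, the level was 87.4 to 126 CPM in BPN/3J vehicle mice and 104 to 254 CPM in BPH/2J vehicle mice, and 3 of the 16 (Dcn, Col3a1 and Col1a2) were called higher in BPH/2J. Of 13 pericyte and smooth muscle markers, 6 (Rgs5, Mcam, Tagln, Cnn1, Acta2 and Myh11) were called higher and 1 (Ren1) lower, and their sum ran from 254 to 257 CPM in BPN/3J and from 236 to 311 CPM in BPH/2J vehicle mice. The part of these cells in the count was not tested. With the log2 sum of the fibroblast markers that are not among the 30 genes as a covariate, a fit added after seeing the data, Loxl2 was the only gene of the 9 called (edgeR log2 fold change 1.14, adjusted p = 0.0202), and calls over all genes fell from 1766 to 773. Since fibroblast markers themselves differed between the strains, that fit also removes strain differences that run with them. Leaving out 1 library at a time gave 4 to 10 calls. In BPN/3J, leaving out vehicle replicate 1 or 3 gave 4 and leaving out 2 gave 5. In BPH/2J, leaving out vehicle replicate 2 gave 6 and leaving out 1 gave 10. Loxl2, Lox, Tgfb2 and Vim were called in all 18 such fits.

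**Figure D1:**
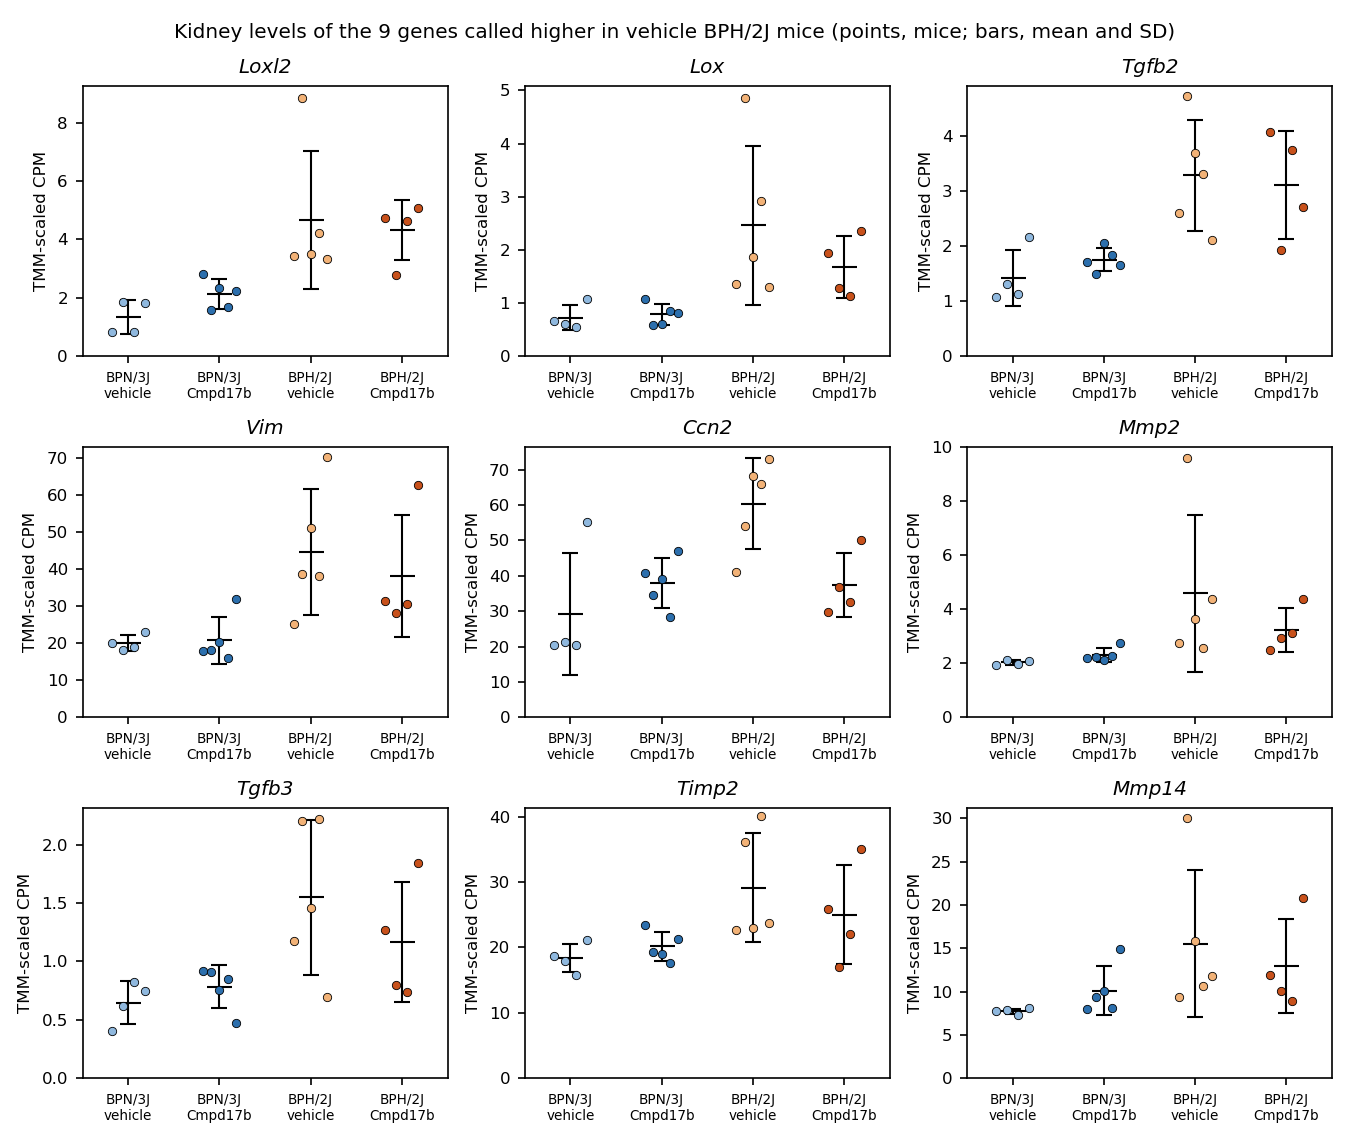
TMM-scaled CPM in each kidney (points) with the group mean and SD (bars) for the 9 genes called higher in BPH/2J under vehicle, on linear axes that start at 0. Loxl2 averaged 4.67 CPM in BPH/2J vehicle mice and 1.34 CPM in BPN/3J vehicle mice, and 1 BPH/2J vehicle mouse stood above the others at 8.85 CPM.

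Among the lysyl oxidases, Loxl2 and Lox showed the largest fold changes of the 9 genes. Loxl2, which cross-links collagen IV and fibrillar collagens, stood at 0.840, 1.88, 0.825 and 1.82 CPM in BPN/3J vehicle mice and at 3.45, 8.85, 3.51, 4.22 and 3.33 CPM in BPH/2J vehicle mice. Under Cmpd17b it was at 2.82, 1.58, 2.35, 1.70 and 2.24 CPM in BPN/3J and at 4.75, 2.80, 4.63 and 5.07 CPM in BPH/2J. The vehicle groups did not overlap, and in the treated groups the lowest BPH/2J mouse lay just below the highest BPN/3J mouse. Under vehicle Loxl2 was 3.48-fold higher in BPH/2J (edgeR log2 fold change 1.80, SE 0.34, adjusted p = 0.00179).

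Lox, the founding member of the family, was at 0.672, 0.616, 0.542 and 1.07 CPM in BPN/3J vehicle mice and at 1.36, 4.86, 1.87, 2.92 and 1.30 CPM in BPH/2J vehicle mice. In treated mice the values were 1.08, 0.581, 0.614, 0.849 and 0.815 CPM for BPN/3J and 1.94, 1.29, 1.13 and 2.36 CPM for BPH/2J. BPH/2J mice lay above BPN/3J mice in both arms without overlap, with the smallest gap in the treated arm. The vehicle difference was 3.40-fold (edgeR log2 fold change 1.76, SE 0.39, adjusted p = 0.00559). Loxl1, which acts mainly on elastic fibres, ran from 2.15 to 5.84 CPM in BPN/3J and from 3.51 to 7.91 CPM in BPH/2J vehicle mice, and its log2 fold change of 0.71 was not called (edgeR adjusted p = 0.274).

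Of the TGF-beta ligands, Tgfb2 and Tgfb3 were higher in BPH/2J and Tgfb1 was not called. Tgfb2 stood at 1.08, 1.32, 1.13 and 2.17 CPM in BPN/3J vehicle mice and at 2.60, 4.72, 3.69, 3.32 and 2.12 CPM in BPH/2J vehicle mice. The groups overlapped by 1 mouse each, since BPN/3J replicate 4 was just above BPH/2J replicate 5. Treated mice had 1.71, 1.49, 2.07, 1.85 and 1.66 CPM in BPN/3J and 4.08, 1.93, 3.74 and 2.71 CPM in BPH/2J. Tgfb2 was 2.31-fold higher in BPH/2J under vehicle (edgeR log2 fold change 1.21, SE 0.28, adjusted p = 0.00758).

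Tgfb3 was scarce, at 0.403, 0.616, 0.825 and 0.750 CPM in BPN/3J vehicle mice and at 1.18, 2.20, 1.46, 2.22 and 0.692 CPM in BPH/2J vehicle mice. BPH/2J replicate 5 lay inside the BPN/3J range and the 4 others lay above it. Its log2 fold change was 1.25 (SE 0.37, edgeR adjusted p = 0.0344), and the call was lost when any 1 of 6 libraries was left out, among them each BPN/3J vehicle library. Tgfb1, the ligand most studied in fibrosis, averaged 8.21 ± 1.36 CPM (SD, n = 4) in BPN/3J and 9.42 ± 2.42 CPM (SD, n = 5) in BPH/2J vehicle mice, with a log2 fold change of 0.20 and a 95% interval from -0.37 to 0.76.

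Among the receptors and Smads 0 of 4 were called between the strains, and all 4 log2 fold changes were slightly negative, between -0.23 for Tgfbr1 and -0.04 for Smad7. Tgfbr1 was at 43.4 ± 2.89 CPM (SD, n = 4) in BPN/3J and 37.1 ± 6.57 CPM (SD, n = 5) in BPH/2J vehicle mice (edgeR adjusted p = 0.307). For Smad3, the transcription factor that carries the signal, the 95% interval of the log2 fold change ran from -0.40 to 0.28, and for Smad7, its inhibitor, from -0.45 to 0.37. The intervals of Tgfbr2 (-0.53 to 0.33) and of these Smads thus lie within a 2-fold change.

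Ccn2, also known as connective tissue growth factor, stood at 20.4, 21.4, 20.3 and 55.1 CPM in BPN/3J vehicle mice and at 40.9, 54.1, 68.2, 65.8 and 72.9 CPM in BPH/2J vehicle mice. In treated mice it was at 40.8, 34.5, 39.1, 28.3 and 47.1 CPM in BPN/3J and at 29.8, 36.7, 32.5 and 50.2 CPM in BPH/2J. Without BPN/3J vehicle replicate 4 the vehicle groups would not overlap, whereas the treated groups covered nearly the same range. Under vehicle the log2 fold change was 1.04 (SE 0.28, edgeR adjusted p = 0.0190). It became 1.54 without BPN/3J vehicle replicate 4, and it was not called without BPN/3J vehicle replicate 1, 2 or 3. Ccn1, its relative, ran from 12.4 to 22.6 CPM in BPN/3J and from 15.1 to 43.1 CPM in BPH/2J vehicle mice, with a log2 fold change of 0.76 that was not called (edgeR adjusted p = 0.126).

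Among the metalloproteinases, Mmp2, the gelatinase that cuts denatured collagen and collagen IV, was at 1.95, 2.14, 1.98 and 2.09 CPM in BPN/3J vehicle mice and at 2.75, 9.61, 3.66, 2.56 and 4.37 CPM in BPH/2J vehicle mice. Mmp14, the membrane-bound activator of Mmp2, was at 7.73, 7.83, 7.28 and 8.06 CPM against 9.37, 30.04, 15.9, 10.7 and 11.8 CPM. Neither gene's vehicle groups overlapped, and in both BPH/2J vehicle replicate 2 was the highest by a wide margin. Log2 fold changes were 1.17 for Mmp2 (SE 0.31, edgeR adjusted p = 0.0197) and 1.01 for Mmp14 (SE 0.31, edgeR adjusted p = 0.0447). Without BPH/2J vehicle replicate 2 they fell to 0.70 for Mmp2, still called (edgeR adjusted p = 0.0404), and to 0.62 for Mmp14, not called (edgeR adjusted p = 0.133). Over the 18 leave-one-out fits Mmp14 lost its call in 12 and Mmp2 in 2.

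Mmp9, the other gelatinase, stayed under 1 CPM in all but 1 library, with a log2 fold change of 0.65 whose 95% interval ran from -0.71 to 2.01. Mmp3, stromelysin 1, was not tested, and its raw counts were 0, 0, 0 and 1 in BPN/3J vehicle mice and 1, 22, 9, 16 and 1 in BPH/2J vehicle mice. DESeq2, and edgeR with no filter, called Mmp3 higher in BPH/2J, but several libraries held 0 or 1 count. Mmp7, matrilysin, had 39 counts in all 18 libraries together, and 25 of them came from BPH/2J vehicle replicate 2.

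Of the 3 inhibitors, Timp2, which also helps Mmp14 to activate Mmp2, was at 18.7, 17.9, 15.9 and 21.1 CPM in BPN/3J vehicle mice and at 22.7, 36.1, 23.0, 40.1 and 23.8 CPM in BPH/2J vehicle mice. The groups did not overlap, and BPH/2J replicates 2 and 4 stood apart from the 3 others. The log2 fold change of 0.66 (SE 0.20, edgeR adjusted p = 0.0387) lost its call in 6 of the 18 leave-one-out fits. Timp3, an inhibitor bound to the matrix, averaged 1704 CPM in BPN/3J and 1666 CPM in BPH/2J vehicle mice, and its log2 fold change of -0.03 had a narrow 95% interval from -0.27 to 0.20.

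Timp1, an injury-induced inhibitor, had the largest fold change of the 27 genes without passing the test. Its levels were 0.0336, 0.264, 0.165 and 0.0268 CPM in BPN/3J vehicle mice and 0.151, 2.37, 0.448, 0.141 and 0.216 CPM in BPH/2J vehicle mice. BPH/2J replicate 2 alone held 81 of the gene's 172 counts over 18 libraries, 3 of the 4 other BPH/2J mice lay within the BPN/3J range, and replicate 3 lay above it. The log2 fold change was 2.41 (SE 0.91, edgeR adjusted p = 0.104), and without BPH/2J vehicle replicate 2 or 3 the gene no longer passed the filter on low counts.

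Vim, which encodes vimentin of mesenchymal cells and of injured tubule cells, was at 20.1, 18.2, 18.998 and 23.1 CPM in BPN/3J vehicle mice and at 25.3, 38.6, 51.2, 38.2 and 70.2 CPM in BPH/2J vehicle mice. Treated mice had 17.9, 18.1, 20.2, 16.1 and 31.9 CPM in BPN/3J and 31.3, 28.0, 30.7 and 62.9 CPM in BPH/2J. BPH/2J vehicle mice lay above all BPN/3J vehicle mice, and in the treated arm only BPN/3J replicate 5 reached the BPH/2J range. The vehicle log2 fold change was 1.15 (SE 0.28, edgeR adjusted p = 0.0114). Markers of tubule injury, a list of 12 genes that includes Vim, summed to 354 to 445 CPM in BPN/3J and 520 to 885 CPM in BPH/2J vehicle mice, and 3 of the 12 (Cp, Clu and Vim) were called higher. The part of injured tubule cells in the Vim difference was not tested.

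The other mesenchymal, PDGF and secreted genes were not called under vehicle. S100a4, a calcium-binding protein used as a fibroblast marker, had a log2 fold change of 0.79 (edgeR adjusted p = 0.345), and Fap, a protease of activated fibroblasts, one of -0.36 with a 95% interval from -1.69 to 0.96. The PDGF ligands Pdgfa and Pdgfb had log2 fold changes of 0.22 and 0.28, and their receptors Pdgfra and Pdgfrb 0.57 and 0.42, all positive, with edgeR adjusted p-values of 0.485, 0.413, 0.196 and 0.313. Pdgfra was called in 1 leave-one-out fit, without BPN/3J vehicle replicate 4 (log2 fold change 0.86, edgeR adjusted p = 0.0498). Spp1 (osteopontin) and Lgals3 (galectin-3), secreted by injured tubules and macrophages, had log2 fold changes of 0.35 and 0.34, and Spp1 ran from 218 to 713 CPM among the BPH/2J vehicle mice. Il11, a cytokine that acts downstream of TGF-beta in fibroblasts, had 102 counts over 18 libraries and was not tested.

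**Figure D2:**
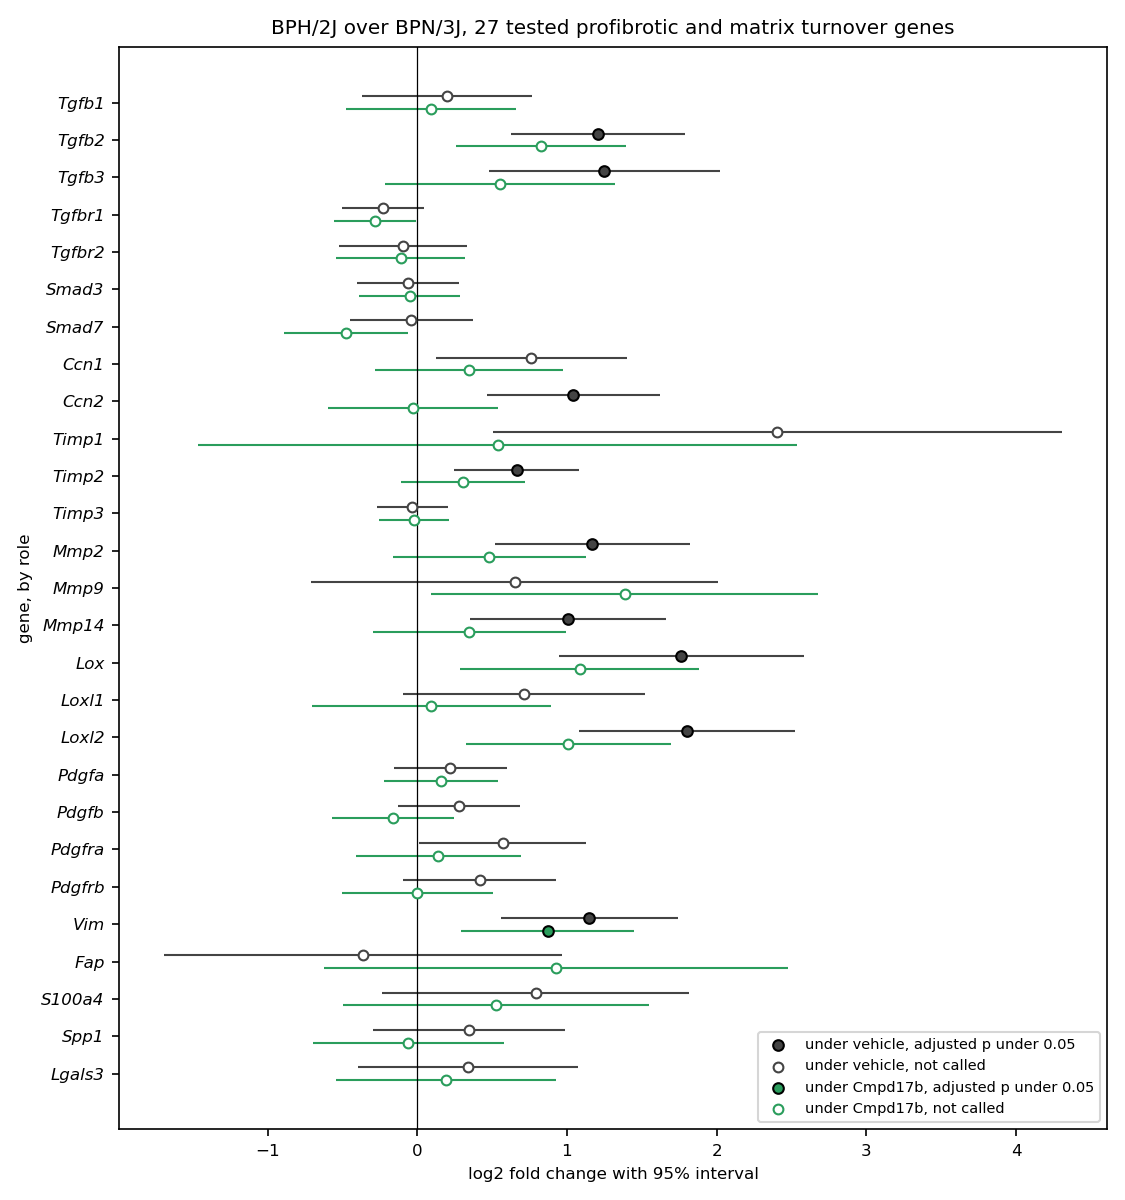
Log2 fold change of BPH/2J over BPN/3J with its 95% interval for the 27 tested genes, under vehicle (grey) and under Cmpd17b (green); filled points have an edgeR adjusted p under 0.05. Under vehicle 9 points are filled, from Timp2 at 0.66 to Loxl2 at 1.80, and under Cmpd17b only Vim is, at 0.87.

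Promoter sequences were looked up for the genes that were higher together under vehicle. RefSeq promoters (GRCm38.p6) were at hand for 19 of the 30 genes and for 4 of the 9 called genes. The 250 bases upstream of the transcription start of these 4 are printed 5′ to 3′ on the gene's strand, so that the motifs near TGF-beta ligand, metalloproteinase, inhibitor and filament genes can be compared. Capitals mark the 2 motifs that were found, the SMAD box CAGAC and the GC box GGGCGG, on either strand. The Mmp14 window is chr14:54431348-54431597 on the plus strand, and the Tgfb2 window is chr1:186705990-186706239 on the minus strand. The Timp2 window is chr11:118355412-118355661 on the minus strand, and the Vim window is chr2:13574061-13574310 on the plus strand.
Tgfb2: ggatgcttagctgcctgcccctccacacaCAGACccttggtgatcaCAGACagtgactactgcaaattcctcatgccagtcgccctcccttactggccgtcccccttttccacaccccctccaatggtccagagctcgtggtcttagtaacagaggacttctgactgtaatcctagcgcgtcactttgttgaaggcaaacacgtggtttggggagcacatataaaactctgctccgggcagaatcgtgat
Mmp14: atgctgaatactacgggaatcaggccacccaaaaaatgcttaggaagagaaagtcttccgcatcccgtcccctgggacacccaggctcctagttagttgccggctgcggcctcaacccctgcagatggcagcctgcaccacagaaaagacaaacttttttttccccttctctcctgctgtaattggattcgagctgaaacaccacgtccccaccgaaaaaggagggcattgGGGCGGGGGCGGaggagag
Timp2: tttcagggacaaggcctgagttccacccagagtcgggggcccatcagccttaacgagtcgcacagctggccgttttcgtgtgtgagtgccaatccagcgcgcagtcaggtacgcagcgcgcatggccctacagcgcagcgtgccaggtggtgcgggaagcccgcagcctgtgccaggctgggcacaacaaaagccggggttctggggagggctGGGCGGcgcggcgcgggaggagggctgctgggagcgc
Vim: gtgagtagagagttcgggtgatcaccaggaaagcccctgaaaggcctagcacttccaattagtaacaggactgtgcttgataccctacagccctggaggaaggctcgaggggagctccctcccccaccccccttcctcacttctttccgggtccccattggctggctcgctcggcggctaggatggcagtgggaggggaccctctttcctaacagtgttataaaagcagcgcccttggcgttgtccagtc

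The Tgfb2 window holds 2 SMAD boxes, which begin 221 and 204 bases upstream of the start, and no GC box. The Mmp14 window has no SMAD box and holds 2 GC boxes next to each other, 19 and 13 bases upstream, and Timp2 holds 1 GC box, 37 bases upstream. The Vim window holds neither motif. None of the 4 windows holds an AP-1 site (TGANTCA) or a TEAD site (CATTCC), and no match overlaps another. Of the 19 genes with a RefSeq promoter, 9 had a SMAD box, 11 a GC box, 3 an AP-1 site and 2 a TEAD site in at least 1 window. Over all 32851 promoter windows of that length the shares were 42.2%, 32.7%, 6.75% and 12.6%. Those shares count windows, whereas the 19 genes had 24 windows and were counted by gene, so the 2 are not on the same footing. No motif among those searched was in all 4 windows, although Mmp14 and Timp2 both hold the GC box. A match in these letters shows no binding.

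Lists of other genes of the same pathways were tested in the same fit, in which 5.82% of all tested genes were higher and 4.94% lower. Of 54 tested genes of the TGF-beta and BMP pathway outside the 30, 3 were higher in BPH/2J under vehicle (Ltbp3 and Ltbp4, which store latent TGF-beta in the matrix, and the focal adhesion protein gene Tgfb1i1) and 1 was lower, the activin receptor gene Acvr2b. Their log2 fold changes were 0.54 for Ltbp3, 0.62 for Ltbp4, 0.999 for Tgfb1i1 and -0.93 for Acvr2b (edgeR adjusted p from 0.00296 to 0.0358). Of 53 tested genes of matrix turnover, 3 were higher and 0 lower: the hyaluronidase gene Hyal1 (log2 fold change 1.40), Plat, which encodes tissue plasminogen activator (1.07), and Mmp23 (1.13). Of 27 tested PDGF, CCN and cytokine genes, 4 were higher and 0 lower, namely Ccn3 (log2 fold change 2.56), S100a6 (1.57), S100a11 (1.13) and the integrin gene Itgb5 (0.35). The medians of these lists were 0.09, 0.29 and 0.17, against 0.04 over all tested genes.

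Under Cmpd17b the same strain comparison, made between treated mice with each gene's spread taken from all 18 libraries, called 1 of the 27 genes higher in BPH/2J and 0 lower, where 5.71% of all tested genes were higher and 4.65% lower. That gene was Vim (edgeR log2 fold change 0.87, SE 0.27, adjusted p = 0.0497), and without BPH/2J Cmpd17b replicate 5 it fell to 0.52 and was not called (edgeR adjusted p = 0.248). It lost its call in 12 of the 18 leave-one-out fits. Which gene was called also moved with the fit: it was Loxl2 alone with only the compared groups, Loxl2 and Tgfb2 with the TMM factor as a covariate, Lox and Loxl2 with the fibroblast covariate, and Loxl2, Tgfb2 and Vim with DESeq2. Loxl2 (log2 fold change 1.01, adjusted p = 0.0568), Tgfb2 (0.83, adjusted p = 0.0592) and Lox (1.09, adjusted p = 0.0806) were near the threshold in edgeR. Lox was the only one of the 27 whose treated groups did not overlap, against 6.38% of all tested genes for which BPH/2J lay above. The median log2 fold change was 0.19, against 0.01 over all tested genes.

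Of the 9 genes called under vehicle, 8 had a positive log2 fold change in treated mice, all smaller than under vehicle. The 9 were picked for their difference under vehicle, and such a choice by itself tends to leave smaller values in the other arm. Tgfb3 had 0.55, Timp2 0.31, Mmp2 0.48 and Mmp14 0.35, none of them called. Ccn2 was the exception in sign, at -0.03 with a 95% interval from -0.60 to 0.54. The arms were fitted together with a common spread per gene, and whether the strain difference itself changed with treatment is tested by the interaction below. Mmp9 had its largest strain difference here, 1.39 (edgeR adjusted p = 0.173), which fell to 0.71 without BPH/2J Cmpd17b replicate 5. Smad7 had -0.48 (edgeR adjusted p = 0.143) and -0.28 without that library.

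Among other pathway genes in treated mice, Grem1, a BMP antagonist, and Inhba, an activin subunit, were higher in BPH/2J and Id2, a BMP target, was lower (edgeR log2 fold change 4.18, 1.47 and -0.76), which makes 2 higher and 1 lower of 54. Of all tested genes, 5.71% were higher and 4.65% lower in this comparison. In the matrix turnover list Hyal1 and Plat were again higher (1.23 and 0.84) and the protease gene Ctsl and the transglutaminase gene Tgm2 were lower (-0.52 and -0.35), 2 and 2 of 53. In the PDGF, CCN and cytokine list S100a11 and Ankrd1 were higher (1.10 and 3.13) and Amotl2 was lower (-0.40), 2 and 1 of 27. Ankrd1 is abundant in heart muscle, whose markers were raised in these BPH/2J libraries, and the part of heart transcripts in its value was not tested.

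Cmpd17b in BPH/2J mice asks whether the compound changes these genes in the hypertensive kidney. None of the 27 genes was called by edgeR, where 0.164% of all tested genes were, and none had groups that did not overlap, against 0.932% of all tested genes. At an unadjusted p under 0.05 in edgeR there was 1 gene of the 27, Ccn2, and there were 608 of all 16421 tested genes. DESeq2 and limma-voom also called 0 of them. Ccn2 was at 60.4 ± 12.9 CPM (SD, n = 5) with vehicle and 37.3 ± 9.08 CPM (SD, n = 4) with Cmpd17b, and only the treated mouse at 50.2 CPM reached the vehicle range. Its log2 fold change was -0.70 (SE 0.27, 95% interval -1.27 to -0.12, edgeR adjusted p = 1), and over all alternatives its adjusted p ran from 0.250 to 1. Log2 fold changes were negative for 19 of the 27 genes, with a median of -0.14 against -0.01 over all tested genes. For 18 genes the 95% interval lay within a 2-fold change either way.

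Of the 8 other genes that were higher in BPH/2J under vehicle, treated and vehicle BPH/2J mice differed by log2 fold changes between -0.57 for Lox and -0.08 for Tgfb2. The 95% interval was -1.35 to 0.22 for Lox, -1.19 to 0.32 for Tgfb3, -1.15 to 0.13 for Mmp2 and -0.80 to 0.56 for Loxl2, so that a fall of 2-fold was not resolved from no change for Lox, Tgfb3 and Mmp2. Timp1 had the lowest value, -1.54, with an interval from -3.40 to 0.32, and it carries the 1 high vehicle mouse described above. Mmp9 was the highest, at 1.09 with an interval from -0.19 to 2.37, and its treated levels of 0.435, 0.227, 0.389 and 1.27 CPM overlapped the vehicle levels of 0.0907, 0.205, 0.261, 0.450 and 0.303 CPM. This comparison and the strain comparison under vehicle share the 5 BPH/2J vehicle mice, so their values are not independent.

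In BPN/3J mice none of the 27 genes was called for Cmpd17b, and edgeR called 0% of all tested genes (415 genes had an unadjusted p under 0.05, DESeq2 called 6 genes and limma-voom 0). No gene of the 27 had groups that did not overlap, against 1.78% of all tested genes. Log2 fold changes were positive for 23 of the 27, with a median of 0.21 against 0.00 over all tested genes. They were also positive for 13 of 16 fibroblast, 12 of 12 endothelial and 11 of 13 tested macrophage markers. Among thick ascending limb and urothelium markers, 1 of 7 and 1 of 9 were positive. The BPN/3J vehicle mice also enter the strain comparison under vehicle, so the values of the 2 comparisons are not independent. Loxl2 had a log2 fold change of 0.67 that was not called (95% interval -0.04 to 1.38), and Fap was the only gene with an unadjusted p under 0.05. Fap was at 0.303, 0.586, 0.165 and 0.563 CPM with vehicle and at 0.0951, 0.111, 0.0279, 0.185 and 0.170 CPM with Cmpd17b. The groups overlapped through the vehicle mouse at 0.165 CPM, and the treated mice held between 1 and 5 counts each. The log2 fold change was -1.77 (SE 0.68, 95% interval -3.21 to -0.34, edgeR adjusted p = 1).

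Averaged over both strains, edgeR called 0 of the 27 genes for Cmpd17b, where 0.067% of all tested genes were called. Of the 27, Timp3 and Fap had unadjusted edgeR p-values under 0.05, as had 564 of all 16421 tested genes. Timp3 averaged 1704 and 1971 CPM in BPN/3J and 1666 and 1941 CPM in BPH/2J, with vehicle and Cmpd17b in that order, which is a log2 fold change of 0.21 (95% interval 0.05 to 0.38, edgeR adjusted p = 0.99995). Vehicle and treated Timp3 levels overlapped in both strains. Fap had -1.13 (95% interval -2.15 to -0.11, edgeR adjusted p = 0.99995). The 95% interval lay within a 2-fold change for 24 of the 27 genes.

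In the interaction, the difference of the Cmpd17b effect between BPH/2J and BPN/3J, edgeR called 0 of the 27 genes against 0.0304% of all tested genes. The smallest p belonged to Ccn2, with 0.37 in BPN/3J and -0.70 in BPH/2J on the log2 scale and a difference of -1.07 (SE 0.39, 95% interval -1.88 to -0.26, edgeR adjusted p = 0.9999). It was not called in any alternative, where the adjusted p ran from 0.114 to 1. Differences were negative for 23 of the 27 genes, with a median of -0.40 against 0.00 over all tested genes, and ranged from -1.87 for Timp1 to 1.29 for Fap. They were also negative for 14 of 16 fibroblast, 11 of 12 endothelial and 13 of 13 tested macrophage markers. By contrast, 2 of 12 proximal tubule and 0 of 15 tested heart muscle markers were negative. The interaction shares its vehicle mice with the strain comparison under vehicle, which called 9 of the 27 genes higher. The 2 are not independent, and high values there by themselves tend to make the interaction negative. For 20 of the 27 the 95% interval reached beyond a 2-fold difference, so differences of that size in the response of the strains were not resolved for most genes.

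**Figure D3:**
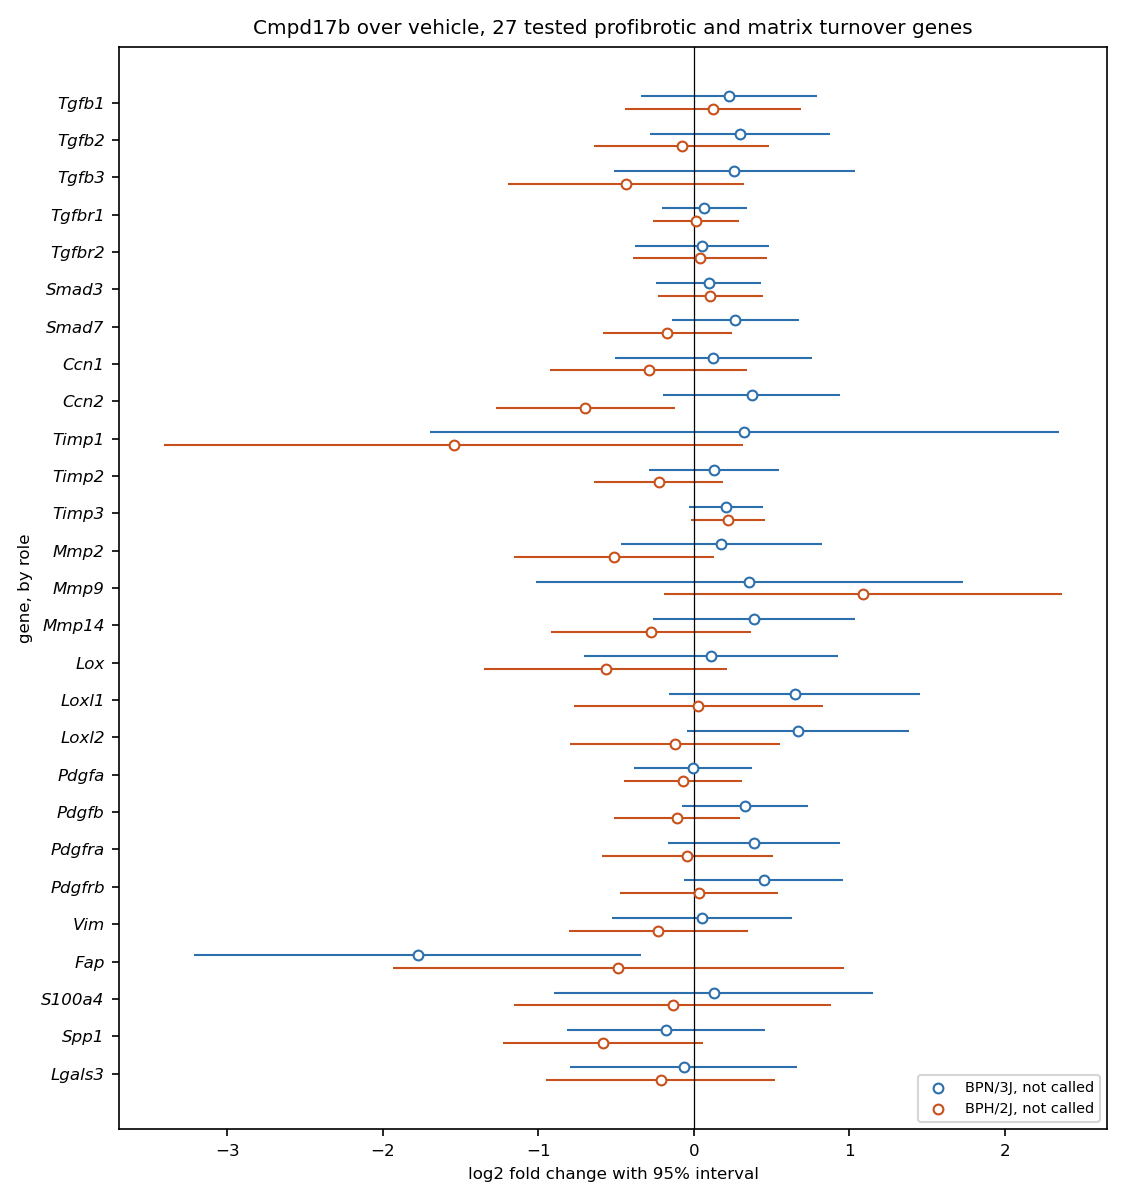
Log2 fold change of Cmpd17b over vehicle with its 95% interval for the 27 tested genes in BPN/3J (blue) and BPH/2J (orange); all points are open because none had an edgeR adjusted p under 0.05. Ccn2 lies at 0.37 in BPN/3J and -0.70 in BPH/2J, and the widest intervals belong to the scarce genes Timp1, Fap and Mmp9.

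The 3 other lists of pathway genes had 0 calls by edgeR for Cmpd17b in BPH/2J, in BPN/3J, averaged over both and in the interaction. The TGF-beta and BMP, matrix turnover and PDGF, CCN and cytokine lists had 54, 53 and 27 tested genes. At an unadjusted p under 0.05 in edgeR there were 1, 2 and 1 of these in BPH/2J, and 6, 3 and 0 in BPN/3J. Of all 16421 tested genes, 608 had such a p in BPH/2J and 415 in BPN/3J. The medians of the 3 lists in BPH/2J lay between -0.07 and -0.02. Among cell type markers, 12 of 15 tested heart muscle genes were called higher in treated BPH/2J mice, and fibroblast markers had 0 of 16 called with 13 of 16 negative. All 13 tested macrophage markers were negative there, 0 of them called, and the highest macrophage sum, 220 CPM against 67.2 to 105 CPM in the 4 other vehicle mice, belonged to BPH/2J vehicle replicate 2.

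The genes varied together between mice of a group as well as between groups. BPH/2J vehicle replicate 2 was the highest of its 5 mice for 13 of the 27 genes (48.1%), against 14.98% of all tested genes. It was also the highest in the fibroblast, macrophage and tubule injury sums, at 254, 220 and 885 CPM. BPH/2J Cmpd17b replicate 5 was the highest of its 4 for 17 genes (63.0%, against 39.1% of all), BPN/3J vehicle replicate 4 for 14 (51.9%, against 35.1%) and BPN/3J Cmpd17b replicate 1 for 12 (44.4%, against 27.8%). The part of these sample differences in the strain comparison was not tested beyond the fits given above.

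S100a4, Lgals3 and Vim traced a second set of mice, with exceptions. S100a4 was at 4.29 CPM in BPN/3J vehicle replicate 4 and 5.77 CPM in BPN/3J Cmpd17b replicate 5, while the other BPN/3J mice lay between 1.67 and 2.15 CPM. In BPH/2J it reached 7.96 CPM in vehicle replicate 5 and 8.76 CPM in Cmpd17b replicate 5. These 4 mice, with BPH/2J vehicle replicate 3, had the lowest sums of 7 thick ascending limb markers, 1538 to 2275 CPM, and TMM factors from 0.811 to 0.971. BPH/2J vehicle replicate 4 also had a raised S100a4 level, 4.87 CPM, but the highest limb sum of all, 5024 CPM. BPH/2J Cmpd17b replicate 3 had a TMM factor of 0.913 with a limb sum of 3305 CPM and S100a4 at 2.99 CPM. With the TMM factor as a covariate, added after seeing the data, the 9 genes were called again under vehicle and all-gene calls rose to 2855.

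**Figure D4:**
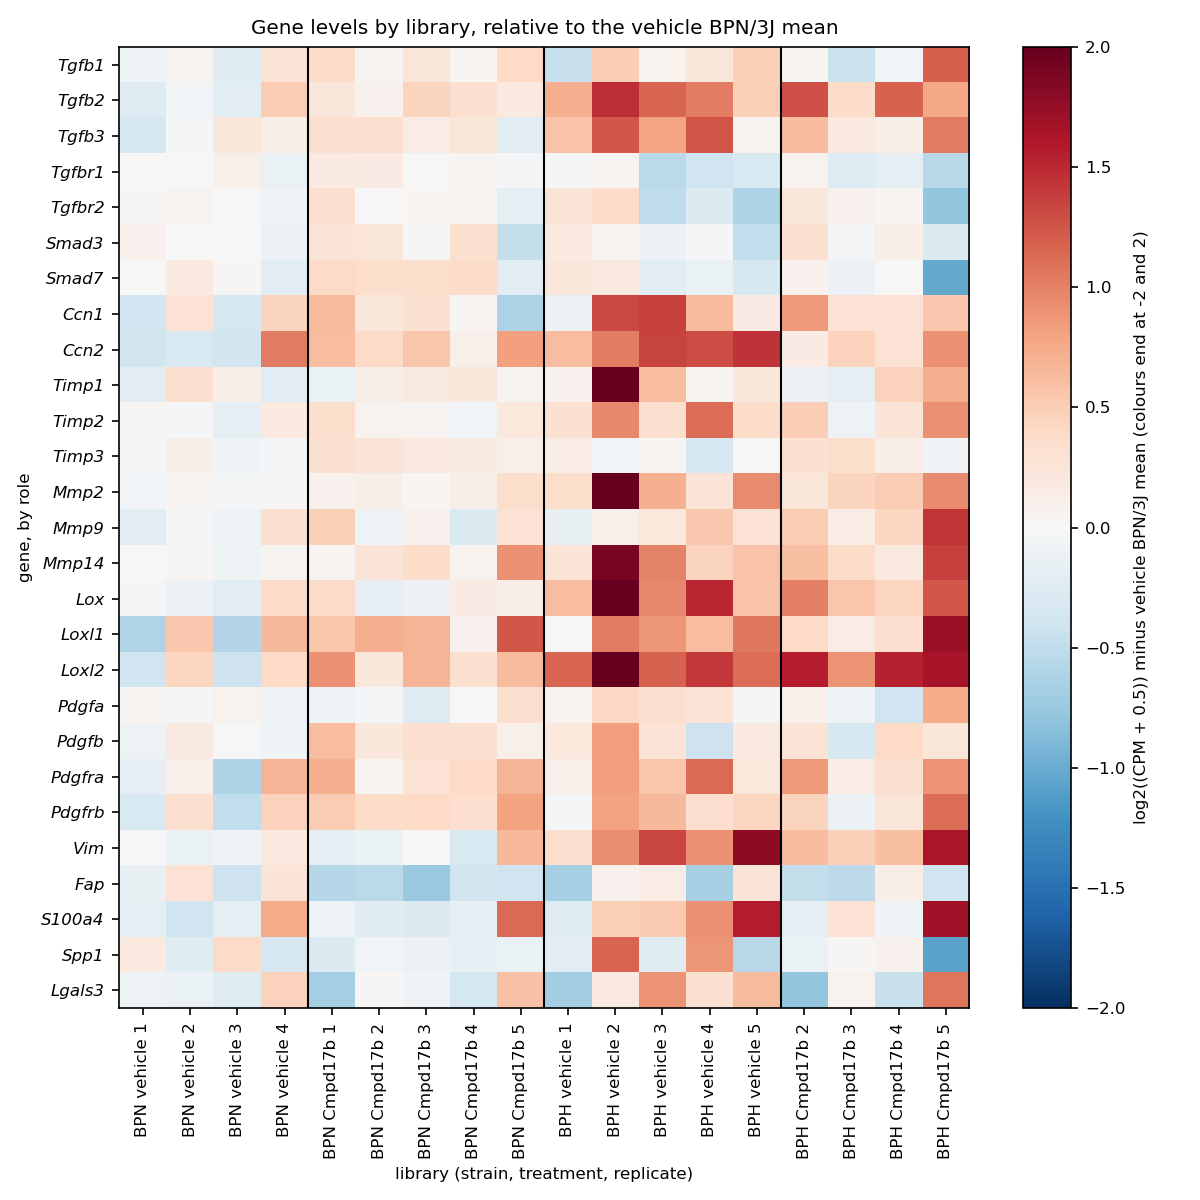
Log2 of CPM plus 0.5 in each of the 18 kidneys minus the mean of the BPN/3J vehicle mice, for the 27 tested genes in order of role; red is higher, blue is lower, and colours end at -2 and 2. The column of BPH/2J vehicle replicate 2 is red for Timp1, Mmp2, Mmp14, Lox and Loxl2, and that of BPH/2J Cmpd17b replicate 5 for S100a4, Vim and Loxl1, while the rows of Tgfbr1, Smad3 and Timp3 stay pale.

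**Figure D5:**
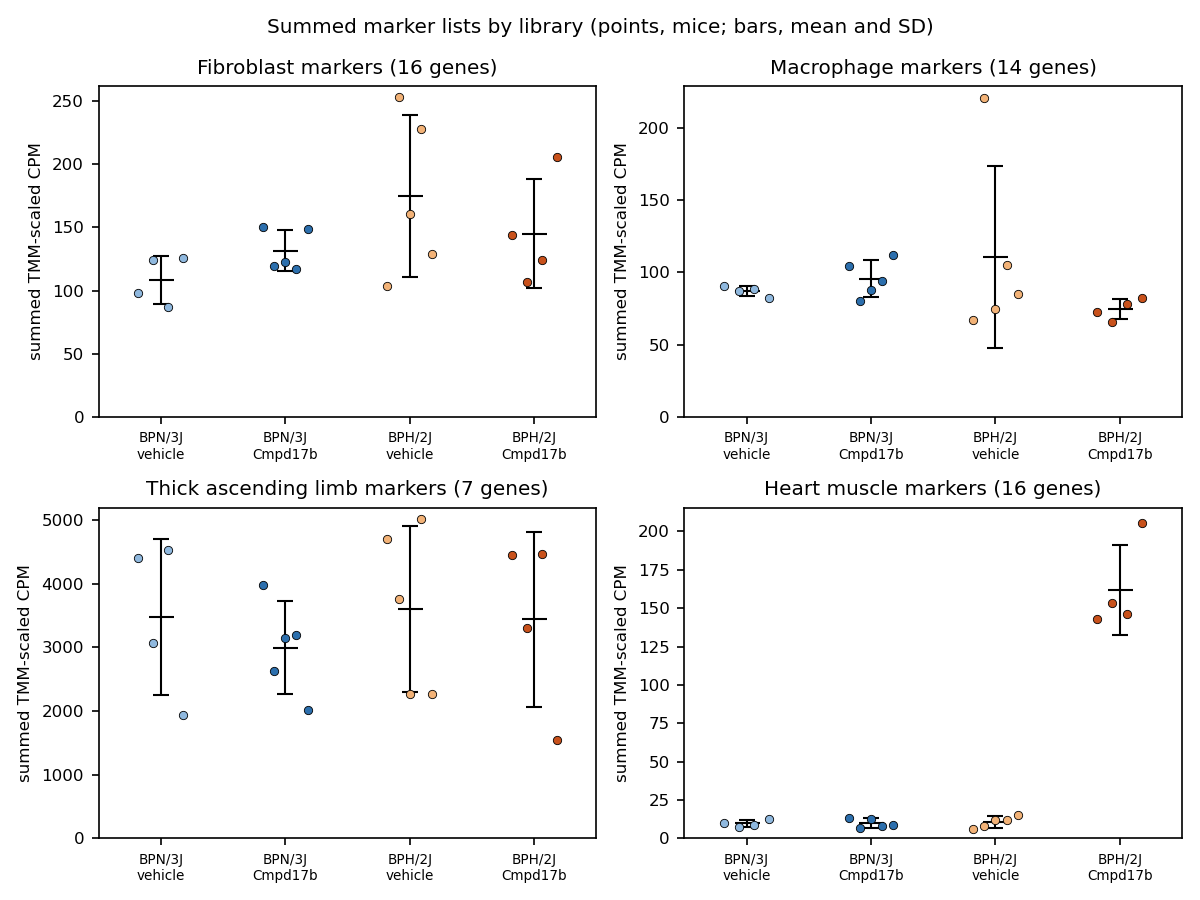
Summed TMM-scaled CPM of fibroblast, macrophage, thick ascending limb and heart muscle markers in each kidney (points) with the group mean and SD (bars), on linear axes that start at 0. Heart muscle sums are 143 to 206 CPM in treated BPH/2J mice and 5.89 to 15.4 CPM in the others, and 1 BPH/2J vehicle mouse is high in both fibroblast (254 CPM) and macrophage (220 CPM) markers.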

How the data were processed

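Polyadenylated RNA of 19 samples labelled as kidney was sequenced as paired reads. The submitters' processing notes name Trim Galore 0.6.7, STAR 2.7.9a and the mouse build mm39 (GRCm39). Which program counted reads per gene, and on which annotation, is not given in the sources used here. The deposited table holds estimated counts per gene, of which 4.63% to 10.1% per library were not whole, and these were rounded before the fit. One library, labelled BPH/2J Cmpd17b replicate 1, was left out because it has a heart profile, a choice made with its values known.

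edgeR 4.0.16 (R 4.3.3) fitted the 4 groups of 18 libraries together by quasi-likelihood with TMM scaling and robust estimates, with 14 residual degrees of freedom. The filter was edgeR's own, with a minimum count of 10 and a total of 15. Called means a Benjamini-Hochberg adjusted p under 0.05 over all 16421 genes. SE is the size of the log2 fold change divided by the square root of F, and 95% intervals use the test's own degrees of freedom. The script was tested on simulated data. Replicate numbers were given in accession order and pair no samples. Where groups are said not to overlap, TMM-scaled CPM was compared.

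The members, the lists of other pathway genes (3) and of cell type markers (15) were chosen with earlier results of these data known. All 30 genes are named, values per library are given for genes called, not overlapping or with the largest fold changes, and from each other list up to 4 called genes. Alternatives were limma-voom (limma 3.58.1), DESeq2 1.42.0 or its size factors within edgeR, all 19 libraries or the compared groups alone, no filter or 1 CPM in at least 4 libraries, no robust estimates, and leaving out each of 18 libraries. The TMM factor and the fibroblast sum as covariates were added after seeing the data. Promoter sequences come from RefSeq (GRCm38.p6), another build than the counts, and no genome coordinate of the counts was used. Figures were drawn with matplotlib 3.10.9.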

Additional observations from a re-analysis of the deposited data

Results flagged for a closer look

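Dixon's criterion was applied within each of the 4 groups to every one of the 30 genes. It compares the highest and lowest mouse with its nearest neighbour. For normally distributed values chance alone meets it in about 1 in 20 groups, and whether these CPM values are so distributed was not tested. The criterion was met in 18 of 120 groups (15%), and 17 of the 18 belonged to 4 mice. The cases include Mmp3, Mmp7 and Il11, which were too scarce to be tested, and for Mmp3 in BPN/3J vehicle mice 1 count met it. The 15% therefore cannot be read as an excess over 1 in 20. Since the 30 genes vary together between mice, these are also not 18 independent events.

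BPH/2J vehicle replicate 2 was far above the 4 others of its group for Loxl2 (8.85 CPM), Mmp2 (9.61 CPM), Timp1 (2.37 CPM) and Mmp7 (0.733 CPM). BPH/2J Cmpd17b replicate 5 was the high mouse for Vim (62.9 CPM), Loxl1 (12.9 CPM), S100a4 (8.76 CPM), Il11 (0.692 CPM) and Mmp3 (0.577 CPM). BPN/3J vehicle replicate 4 was high for Ccn2 (55.1 CPM), Lgals3 (36.5 CPM), S100a4 (4.29 CPM) and Mmp3, whose 0.0268 CPM is 1 count. BPN/3J Cmpd17b replicate 5 was high for Vim (31.9 CPM), S100a4 (5.77 CPM) and Mmp2 (2.75 CPM) and low for Smad7 (13.1 CPM). The remaining case was Fap in BPH/2J Cmpd17b replicate 4 (0.467 CPM, 12 counts).

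The library left out of all comparisons, labelled BPH/2J Cmpd17b replicate 1 and with a heart profile, lay above the highest vehicle library in CPM without TMM scaling for 15 of the 30 genes. Among these genes were Vim (134.8 CPM), Timp2 (75.6 CPM), Pdgfrb (42.9 CPM), Pdgfb (39.6 CPM), Mmp2 (36.0 CPM), Pdgfra (24.4 CPM), Loxl1 (20.6 CPM), Loxl2 (18.1 CPM) and Fap (3.00 CPM). The TGF-beta ligands Tgfb1, Tgfb2 and Tgfb3 stood at 21.1, 5.98 and 12.3 CPM. Timp1, Mmp3 and Mmp9 stood at 2.84, 1.45 and 0.775 CPM. Timp3, Tgfbr1, Smad3, Lgals3 and Spp1 lay below every kidney library, at 139 CPM, 16.9 CPM, 16.5 CPM, 2.49 CPM and 1.07 CPM.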

How the results depend on the processing

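For the strain difference under vehicle, the count of called genes was 9 in the reported fit. It was 1 with all 19 libraries, 4 with only the compared groups and 1 with the fibroblast sum as a covariate (added after seeing the data), and it ran from 4 to 10 over the 18 fits that left out 1 library. It was 8 to 10 under the other alternatives. All-gene calls there went from 1766 to 566 with all 19 libraries, 773 with the fibroblast sum and 2855 with the TMM factor. For the strain difference under Cmpd17b, the count went from 1 to 7 with all 19 libraries, where the library with the heart profile enters the BPH/2J group, 3 with DESeq2, 2 with the TMM factor or the fibroblast sum (both added after seeing the data), and 0 with limma-voom, DESeq2 size factors, no filter or 1 CPM in 4 libraries. It ran from 0 to 3 over the leave-one-out fits. The cause was not tested.

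For Cmpd17b in BPH/2J, in BPN/3J, averaged and in the interaction, the count stayed at 0 in every alternative run. All-gene calls were 27, 0, 11 and 5 in the reported fit, 0 in each with all 19 libraries, 37, 6, 19 and 15 with DESeq2, and 21 to 30, 0, 5 to 12 and 1 to 6 over the leave-one-out fits. Only the compared groups gave 18 for BPH/2J. Single genes were followed in each comparison where the reported fit gave an unadjusted p under 0.05 or an alternative called them, which leaves out Mmp3, untested in the reported fit and called under vehicle with DESeq2, with no filter and in 4 leave-one-out fits, and under Cmpd17b with all 19 libraries. Of their values under an alternative, 624 kept their direction and side of the threshold, 72 lost a call, 20 gained one, 1 uncalled value changed sign (Pdgfra under vehicle, -0.02 with the fibroblast sum) and 0 called values reversed. No paired analysis was possible because the labels give no replicate numbers that tie mice of different groups. Group sizes of 4 and 5 limit precision: the median SE was 0.28 for the strain difference under vehicle, and genes under about 1 CPM (Timp1, Mmp9, Fap) had wide intervals.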
